A study of Mus musculus with 14 samples.

Results

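The MyD88, IRAK and TRAF6 chain was followed as 9 genes of the deposited table, chosen by symbol out of 14449: Myd88, Irak4, Irak1, Irak2, Tollip, Traf6, Tab2, Map3k7 and Ikbkb. All 9 were found, each as 1 row, and all 9 passed the filter on low values. The RNA came from regulatory T cells (Tregs), sorted from lymph nodes as CD4+ Foxp3eGFP+ cells, and the mice were BALB/c and 35 days old. Of 14 libraries, 7 were from Il1rn-/- mice, which lack the IL-1 receptor antagonist, and 7 from wild-type mice, and cells of both genotypes carried the eGFP reporter of Foxp3 by which they were sorted. Titles carry a letter that the labels do not explain, b for 8 libraries (set b: 4 Il1rn-/-, 4 wild type) and a for 6 (set a: 3 Il1rn-/-, 3 wild type). Nothing in the labels says that libraries came from separate animals, so p-values measure only the spread between libraries, which may be technical.

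Receptors for IL-1, IL-18 and IL-33 and most Toll-like receptors share an intracellular TIR domain, which recruits the adaptor MyD88. MyD88 gathers the kinases IRAK4, IRAK1 and IRAK2, which engage the ubiquitin ligase TRAF6. Ubiquitin chains made by TRAF6 are bound by TAB2, the partner of the kinase TAK1 (encoded by Map3k7), and TAK1 activates IKKβ (encoded by Ikbkb), which releases NF-κB. Tollip is an adaptor known for holding IRAK1 back and for sorting receptors through endosomes. In Tregs the chain serves the IL-33 receptor ST2 and the IL-18 receptor as well as IL-1. The comparison asks whether transcripts of this chain differ in Tregs that develop without the antagonist of IL-1. Il1rn itself has no row analysed here, so the genotype labels could not be checked on it.

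Each library held 952021 to 3756559 reads in listed genes. The libraries were grouped by the correlations of their log2 CPM over all 14449 genes of the table, the chain included. They fell into a deep group of 8 (5 Il1rn-/-, 3 wild type), with 1654868 to 2805693 reads outside the ribosomal RNA precursor gene Rn45s. The shallow group of 6 (2 Il1rn-/-, 4 wild type) had 384360 to 905988. Rn45s took 20.3% to 39.95% of reads in deep libraries and 59.6% to 65.8% in shallow ones. Set a was all deep, and in set b only Il1rn-/- 3-b and 4-b were deep, so the set b genotype contrast also sets deep against shallow libraries. Of the deep libraries 4 held Y-linked transcripts, Il1rn-/- 3-b and 4-b and wild-type 1-a and 2-a. They were thus only Il1rn-/- in set b and only wild type in set a, so the genotype contrast of either set also mixes libraries with and without these transcripts. The 7 markers of CD4+ Tregs (Cd3e, Cd4, Foxp3, Il2ra, Ctla4, Ikzf2, Tnfrsf18) were detected in every library, with Foxp3 at 463 to 2046 reads in Il1rn-/- and 315 to 2049 in wild type.

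Every gene of the chain was detected in every library, from 4 reads for Irak1 in wild-type 3-b to 736 reads for Ikbkb in wild-type 3-a. Divided by the length of the longest reference transcript, levels over the 14 libraries were highest for Ikbkb, at 27.3 ± 11.5 CPM per kb (mean ± SD, n = 14 here and in the next sentences). Myd88, the adaptor at the top of the chain, followed at 24.2 ± 4.98 CPM per kb. A middle tier held Tollip at 9.78 ± 2.62, Traf6 at 9.21 ± 2.04, Irak2 at 8.95 ± 2.35, Irak4 at 7.52 ± 1.69 and Tab2 at 6.04 ± 1.97 CPM per kb. Irak1 at 3.42 ± 1.33 and Map3k7 at 2.03 ± 0.70 CPM per kb were lowest. The gap between neighbours in this order exceeded the larger of their SDs for Myd88 over Tollip, Tab2 over Irak1 and Irak1 over Map3k7, and for no other pair of neighbours. Ikbkb and Myd88 were not apart beyond their spread, and their order differed between groups: Ikbkb was at 26.2 and Myd88 at 24.6 CPM per kb in Il1rn-/- of set b, against 13.3 and 27.6 CPM per kb in wild type of set b. With the median in place of the longest transcript length the order below them changed, with Tollip at 20.3, Tab2 at 11.4, Irak2 at 9.62, Traf6 at 9.21, Irak1 at 8.62 and Irak4 at 8.25 CPM per kb, so Irak1 no longer stood apart from the middle tier. Map3k7 was lowest with either length.

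**Figure D1:**
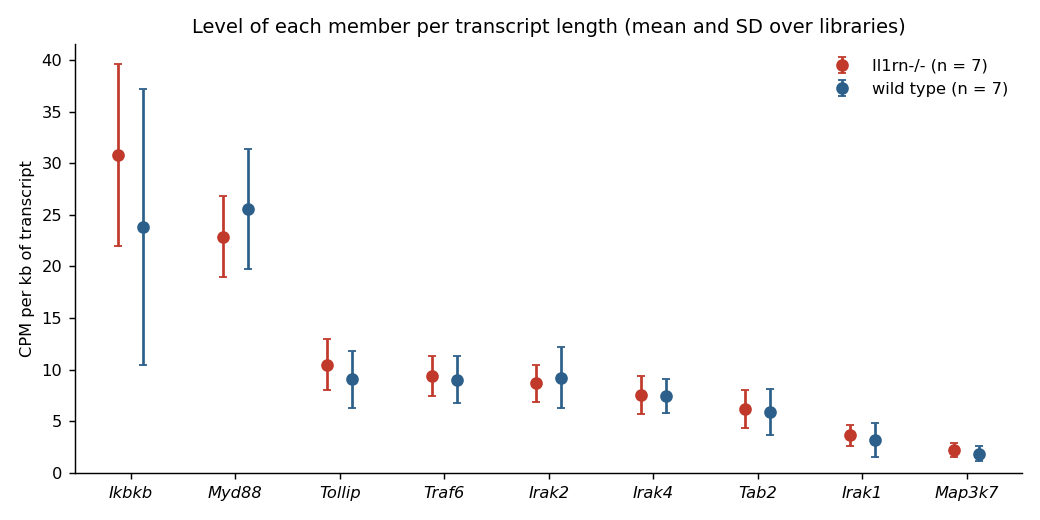
Level of each gene of the chain in CPM per kb of its longest reference transcript, as mean and SD over 7 Il1rn-/- and 7 wild-type libraries. Ikbkb and Myd88 stand above the other genes in both genotypes, at 30.8 and 22.9 CPM per kb in Il1rn-/- and 23.8 and 25.6 CPM per kb in wild type, and the SDs of the genotypes overlap for every gene.

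Between genotypes no gene of the chain passed the test. At an adjusted p under 0.05 (limma, Benjamini-Hochberg over all 12329 genes tested, with set letter in the model) 0 of 9 were called, where the share called over all genes was 0% and 679 genes (5.51%) had an unadjusted p under 0.05, as 1 of the 9 did. For 0 of the 9 were the genotypes free of overlap, against 0.0324% of all genes. Limma voom on recovered reads also called 0 genes. Of the 9 log2 differences (Il1rn-/- minus wild type) 7 were positive and 2 negative, with a median of 0.12 against 0.04 over all genes tested. Scaling to the reads outside Rn45s moved the median of all genes by over 0.1, to -0.06, and gave 5 positive and 4 negative differences in the chain with a median of 0.01. In bulk RNA, fewer cells with a transcript and less transcript per cell cannot be told apart.

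Myd88 ranged from 5.20 to 5.87 log2 CPM in the 7 Il1rn-/- libraries with a median of 5.43, against 5.29 to 6.10 with a median of 5.49 in the 7 wild-type ones. The genotypes overlapped over most of their range. The log2 difference was -0.15 ± 0.15 (estimate ± SE here and below), with a 95% confidence interval of -0.47 to 0.17, the narrowest of the chain. Part of the Myd88 exon sequence, 290 bases or 11.3%, lies opposite exons of Acaa1a in the reference annotation, and reads of the overlap cannot be assigned without strand, whose handling is not given in the sources used here.

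Irak4, the kinase that acts first and phosphorylates IRAK1, ranged from 3.90 to 5.13 log2 CPM in Il1rn-/- (median 4.69) and from 4.24 to 5.10 in wild type (median 4.61). Its difference of 0.02 ± 0.18 (interval -0.37 to 0.40) was the closest to 0 of the chain. As for Myd88, some of its exon sequence (395 bases, 7.87%) lies opposite another gene, Twf1. Irak1 spread more widely, from 3.06 to 4.32 log2 CPM in Il1rn-/- (median 3.83) and from 2.24 to 4.58 in wild type (median 3.30), and differed by 0.28 ± 0.25 (interval -0.25 to 0.81). Irak2, the related kinase that sustains signalling late in the response, ranged from 4.21 to 5.21 in Il1rn-/- (median 4.79) and from 4.13 to 5.43 in wild type (median 4.87). It differed by -0.05 ± 0.18 (interval -0.43 to 0.34). In this fit over all libraries a 2-fold change lay outside the intervals of these 3 kinases and of Myd88, as of every other gene of the chain. In set b alone the interval of Irak1, -0.13 to 1.24, took in a 2-fold change, while those of Irak2, Irak4 and Myd88 did not.

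Tollip, the endosomal adaptor, ranged from 4.78 to 5.79 log2 CPM in Il1rn-/- (median 5.24) and from 4.39 to 5.62 in wild type (median 5.01), a difference of 0.23 ± 0.17 (interval -0.12 to 0.58). For Traf6 the ranges were 5.46 to 6.30 in Il1rn-/- (median 5.80) and 4.92 to 6.18 in wild type (median 5.84), with a difference of 0.08 ± 0.18 (interval -0.29 to 0.45). Tab2 differed by 0.12 ± 0.24 (interval -0.39 to 0.63) and Map3k7 by 0.29 ± 0.22 (interval -0.17 to 0.76). The genotypes overlapped for the adaptor, the ligase and both genes of the TAK1 complex.

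Ikbkb gave the largest of the 9 differences. It ranged from 6.15 to 7.30 log2 CPM in Il1rn-/- (median 7.11) and from 5.64 to 7.33 in wild type (median 5.86). The difference was 0.51 ± 0.19 (interval 0.12 to 0.90, fold 1.42; unadjusted p 0.0134, adjusted p 0.787 by limma). It did not pass, and the ranges overlapped. The wild-type values stood in 2 clusters, at 7.02 to 7.33 in the 3 libraries of set a and at 5.64 to 5.86 in the 4 libraries of set b.

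**Figure D2:**
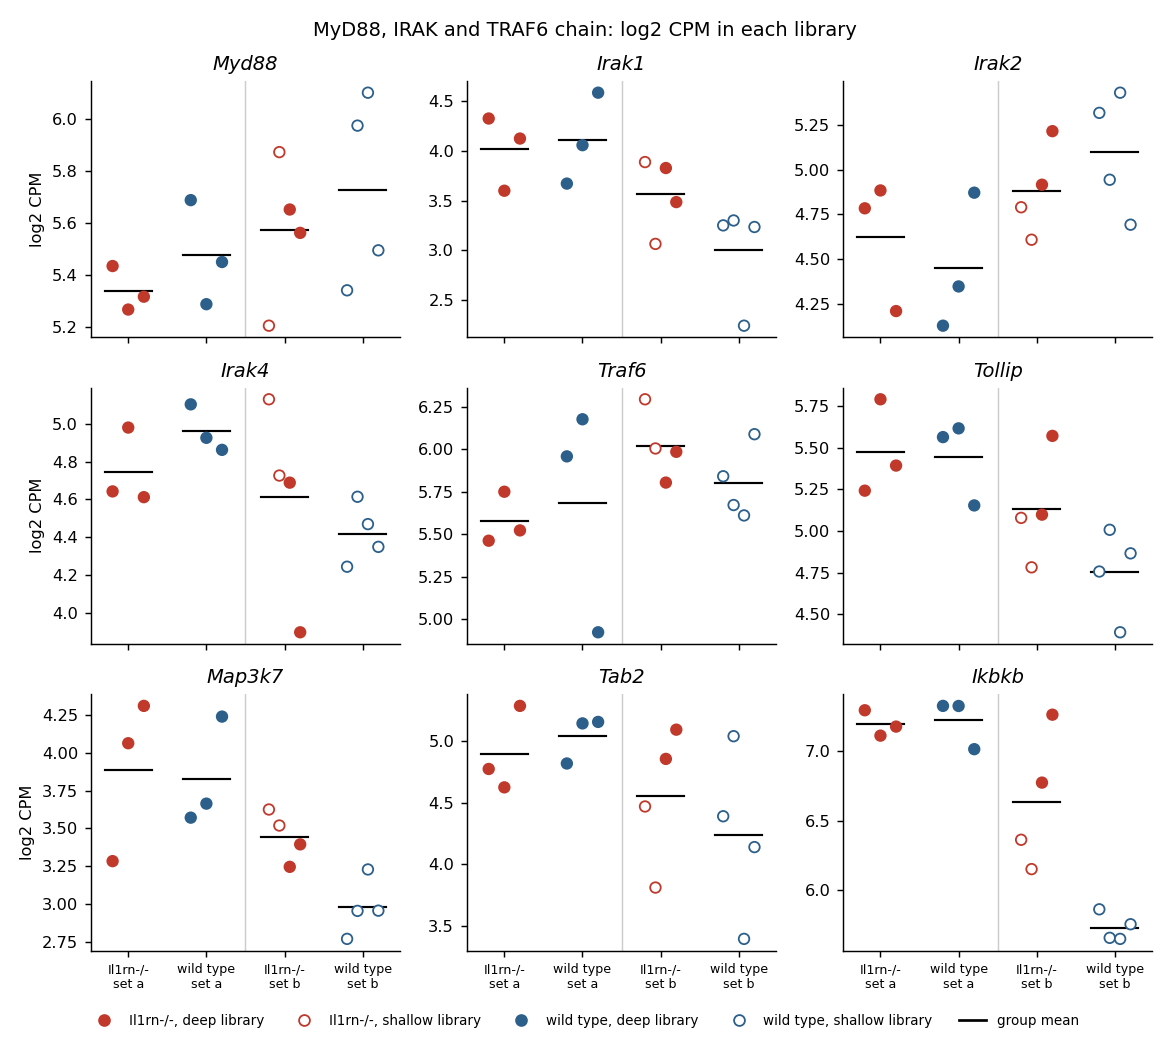
Log2 CPM of each gene of the chain in each of the 14 libraries, by genotype and set, with filled points for deep and open points for shallow libraries and a bar at the group mean. For Ikbkb the set a groups overlap near 7.2, while in set b the 4 Il1rn-/- libraries lie at 6.15 to 7.27 and the 4 wild-type libraries at 5.64 to 5.86.

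With the sets apart, set a gave no separation. Ikbkb was at 7.30, 7.11 and 7.18 log2 CPM in Il1rn-/- 1-a to 3-a and at 7.33, 7.33 and 7.02 in wild-type 1-a to 3-a. The groups overlapped, and the difference was -0.03 ± 0.24. The other 8 genes differed by -0.22 to 0.18 in set a, 3 of the 9 positively, with a median of -0.09 against 0.03 over all genes. All 9 had an adjusted p of 1.00 by limma, 0 were at an unadjusted p under 0.05 (background 1.97%), and 0 had groups that did not overlap (background 7.97%).

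In set b Ikbkb was at 6.36, 6.15, 6.77 and 7.27 log2 CPM in Il1rn-/- 1-b to 4-b and at 5.86, 5.65, 5.64 and 5.75 in wild-type 1-b to 4-b. Every Il1rn-/- library lay above every wild-type library, and the 2 deep ones, 3-b and 4-b, lay highest. The difference was 0.91 ± 0.21 (interval 0.48 to 1.34; unadjusted p 0.000313, adjusted p 0.254 by limma), in a contrast where 0 genes were called (0%) and 15.0% had an unadjusted p under 0.05. Without Il1rn-/- 2-b the difference was 1.07 and passed (adjusted p 0.0324 by limma), in a fit that then called 230 genes. Within the 6 shallow libraries, 134 and 137 reads of Ikbkb in Il1rn-/- 1-b and 2-b stood against 86, 72, 43 and 98 in the wild-type libraries of set b. The difference within shallow libraries was 0.53 ± 0.11 (unadjusted p 0.00313, adjusted p 0.839 by limma), while within the 8 deep libraries it was -0.10 ± 0.14.

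Map3k7, the TAK1 gene, was at 3.63, 3.52, 3.25 and 3.39 log2 CPM in Il1rn-/- 1-b to 4-b and at 2.77, 2.96, 3.23 and 2.96 in wild-type 1-b to 4-b. Here too every Il1rn-/- library of set b lay above every wild-type one, with 3-b of either genotype nearly level, and the 2 shallow Il1rn-/- libraries lay highest. The difference was 0.47 ± 0.30 (interval -0.15 to 1.09, adjusted p 0.459 by limma). These values rest on 20 to 31 reads in Il1rn-/- and 8 to 14 in wild type. In set b 2 of the 9 genes, Ikbkb and Map3k7, did not overlap, both higher in Il1rn-/-, where 4.28% of all genes did not overlap in either direction and 2.36% did so with Il1rn-/- higher.

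The remaining genes overlapped between genotypes in set b. Irak1 differed by 0.56 ± 0.33, Tollip by 0.38 ± 0.22, Tab2 by 0.32 ± 0.32, Traf6 by 0.22 ± 0.23 and Irak4 by 0.19 ± 0.24. The differences of Myd88 and Irak2 were negative, at -0.16 ± 0.21 and -0.21 ± 0.24. The 9 had a median of 0.32 against 0.05 over all genes. The difference between the sets themselves was tested, and 0 of 9 genes passed (background 0%, and 7.85% at an unadjusted p under 0.05). It was 0.94 ± 0.32 for Ikbkb (unadjusted p 0.00788, adjusted p 0.610 by limma), and no other gene of the chain had an unadjusted p under 0.05.

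**Figure D3:**
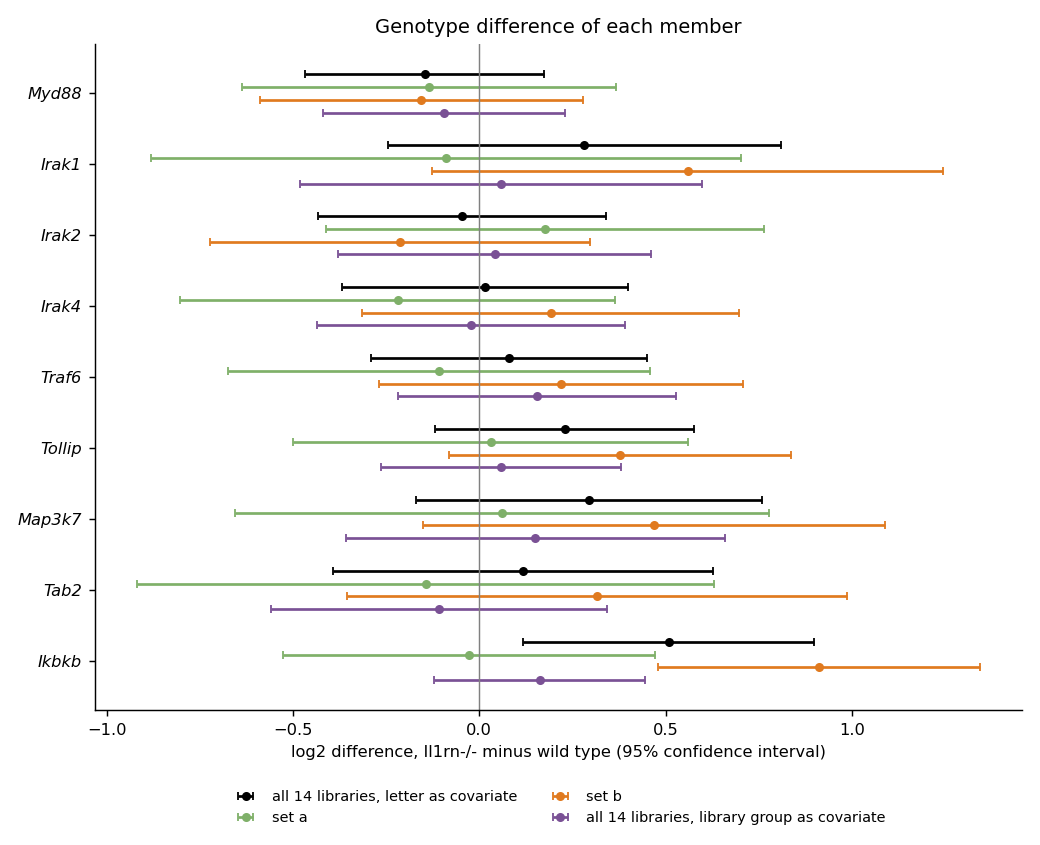
Log2 difference (Il1rn-/- minus wild type) of each gene of the chain with its 95% confidence interval, over all 14 libraries with the letter as covariate, in set a, in set b, and over all 14 libraries with the library group as covariate. The interval excludes 0 for Ikbkb alone, over all libraries (0.51) and in set b (0.91), and not with the library group as covariate (0.16).

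With deep or shallow library in the model in place of the letter, the Ikbkb difference was 0.16 ± 0.14. The others came to 0.16 for Traf6, 0.15 for Map3k7, 0.06 for Irak1 and Tollip, 0.04 for Irak2, -0.02 for Irak4, -0.10 for Myd88 and -0.11 for Tab2, each with an adjusted p of 1.00 (limma). The library group was drawn from these same values and is uneven between genotypes, so a smaller genotype difference with it may be partly built in. The wild-type libraries show the size of that grouping without genotype: Ikbkb averaged 7.23 ± 0.18 log2 CPM in the 3 deep and 5.73 ± 0.10 in the 4 shallow ones (SD). In Il1rn-/- it averaged 7.13 ± 0.21 in the 5 deep libraries and was at 6.36 and 6.15 in the 2 shallow ones. All deep wild-type libraries were of set a and all shallow ones of set b, so letter and depth cannot be told apart in wild type.

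**Figure D4:**
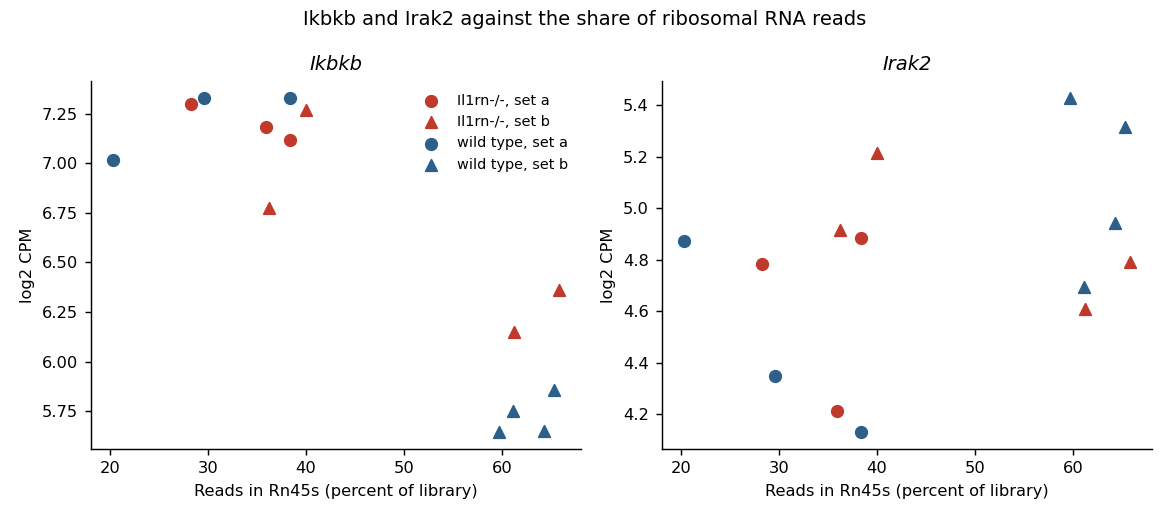
Log2 CPM of Ikbkb and Irak2 against the share of reads in Rn45s in each library, with colour for genotype and shape for set. Ikbkb lies at 6.77 to 7.33 in the 8 libraries with 20.3% to 39.95% of reads in Rn45s and at 5.64 to 6.36 in the 6 with 59.6% to 65.8%, while Irak2 spans 4.13 to 5.21 and 4.61 to 5.43 and overlaps.

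The sets differed from each other more than the genotypes did. With genotype in the model, 4 of the 9 genes were lower in set b and 0 higher, where limma called 19.5% of all genes, 8.48% higher and 11.0% lower in set b. Ikbkb averaged 6.18 ± 0.59 log2 CPM in set b (n = 8) and 7.21 ± 0.13 in set a (n = 6), a difference (set b minus set a) of -1.03 ± 0.19 with an adjusted p of 0.00194 by limma. Tollip averaged 4.94 ± 0.34 in set b and 5.46 ± 0.24 in set a and differed by -0.52 ± 0.17 (adjusted p 0.0383 by limma). Irak1, at 3.29 ± 0.51 and 4.06 ± 0.38 log2 CPM in set b and set a, differed by -0.77 ± 0.25 (adjusted p 0.0401 by limma). Map3k7, at 3.21 ± 0.30 in set b and 3.86 ± 0.41 in set a, differed by -0.64 ± 0.22 (adjusted p 0.0498 by limma). The chain did not move as one: Irak2, Traf6 and Myd88 had positive differences of 0.45, 0.28 and 0.24 that did not pass, while Tab2 and Irak4 had negative ones of -0.57 and -0.34 that did not pass.

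Only the Ikbkb call was kept whichever single library was left out, at an adjusted p of 3.6e-05 to 0.00825 by limma. The Map3k7 call held only without Il1rn-/- 1-a or Il1rn-/- 4-b. That of Irak1 held only without Il1rn-/- 2-a, 1-b, 3-b or 4-b, and that of Tollip was lost in 8 of 14 fits, those without Il1rn-/- 2-a, 1-b or 2-b or without wild-type 1-a, 2-a, 1-b, 3-b or 4-b. Leaving out Il1rn-/- 4-b brought Tab2 past the threshold, at -0.66 (adjusted p 0.0463 by limma), in a fit that called 3376 of 12329 genes, against 2408 with all libraries. Ikbkb was the 1 gene of the chain called with the libraries centred on their medians (-0.98), scaled to the reads outside Rn45s (-0.99) or tested with limma voom (-0.98). The Map3k7 call was also lost with no filter on low values (adjusted p 0.0562 by limma), and with no intensity trend those of Irak1 (adjusted p 0.0525) and Tollip (adjusted p 0.0626) were lost. Library weights added a call for Tab2, at -0.64 (adjusted p 0.0264 by limma), and raised the count over all genes to 4091. Without Il1rn-/- 3-b and 4-b, a fit chosen after seeing the data, Tab2 was called at -0.78 and Map3k7 was not, beside Ikbkb at -1.27, Irak1 at -0.87 and Tollip at -0.63. That fit set the deep libraries of set a against only shallow ones of set b, and called 4462 of 12329 genes. Once the library group was added to the model 0 of the 9 were called, where only 12 of 12329 genes were. Ikbkb was then at -0.31, Map3k7 at -0.69 and Irak1 at -0.49. Only deep libraries are found in both sets, and among them Il1rn-/- 3-b and 4-b, both with Y-linked transcripts, alone stand for set b. The shallow libraries, all of set b, also entered that fit, through its shared genotype and library group terms. The SE rose with the library group added, for Map3k7 from 0.22 to 0.35 and for Irak1 from 0.25 to 0.39. A call lost there does not show that the difference is absent. Between deep and shallow libraries, which were defined from these same values, Ikbkb and Tollip did not overlap and were higher in deep ones (background 14.9% in either direction and 8.35% with deep higher). Tollip lay at 5.10 to 5.79 log2 CPM in deep and at 4.39 to 5.08 in shallow libraries.

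Markers of other cells were summed beside these results. B cell markers (4 of 4 in the table) summed to 14.5 to 52.1 CPM in set b and 33.8 to 49.2 CPM in set a, and CD8 and NK markers (4 of 5) to 16.5 to 46.5 CPM in set b and 10.4 to 23.3 in set a. Myeloid markers (6 of 9) summed to 4.90 to 18.5 CPM in set b and 1.502 to 25.1 in set a, and dendritic markers (3 of 5) to 0 to 3.84 in set b and 0.467 to 4.94 in set a. Cd14 and Fcgr1 were at 0 reads in every Il1rn-/- library of set b, and Klrb1c and Zbtb46 in every wild-type one. Stromal markers (3 of 4), nearly all Pecam1, summed to 66.2 to 102 CPM in set b and 64.8 to 107 in set a. Pecam1 had 128 to 497 reads in Il1rn-/- and 56 to 586 in wild type. Col1a1 had 0 to 6 and 0 to 11 reads and Col1a2 0 to 3 and 0 to 6, so the stromal sum follows Pecam1 and not its list. Within set b the B cell sum was 14.5 to 30.7 CPM in Il1rn-/- and 19.8 to 52.1 in wild type, the CD8 and NK sum 16.5 to 34.2 CPM in Il1rn-/- and 25.6 to 46.5 in wild type, and the myeloid sum 4.90 to 18.5 in Il1rn-/- and 6.97 to 14.8 in wild type. The dendritic sum there was 1.04 to 1.68 CPM in Il1rn-/- and 0 to 3.84 in wild type, and the stromal sum 68.97 to 102 CPM in Il1rn-/- and 66.2 to 80.6 in wild type. Across the sets the 7 Treg markers summed to 2068 to 2762 CPM in set b and 1651 to 2274 in set a. The part of these cells in the differences of the chain was not tested.

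Promoters are shown for the genes called lower in set b that have an entry, Tollip, Irak1 and Map3k7, and for Myd88, which was not called, to set their sequence beside each other. Ikbkb has no entry. Each is the 150 bases before the start of transcription, read 5′ to 3′ on the strand of the gene, from RefSeq (GRCm38.p6), at chr7:141902462-141902611 (minus strand) for Tollip, chrX:74023922-74024071 (minus strand, first of 2 starts) for Irak1, chr4:31963957-31964106 (plus strand) for Map3k7 and chr9:119340019-119340168 (minus strand) for Myd88. Capitals mark the GC box (GGGCGG), the kappa B motif (GGGA, any 4 bases, CC), the STAT motif (TTCNNNGAA) and the interferon response motif (GAAA, any 2 bases, GAAA), on either strand.
Tollip: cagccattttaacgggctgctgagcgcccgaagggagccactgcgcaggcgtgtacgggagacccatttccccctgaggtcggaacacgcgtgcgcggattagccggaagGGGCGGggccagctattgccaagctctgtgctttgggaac
Irak1: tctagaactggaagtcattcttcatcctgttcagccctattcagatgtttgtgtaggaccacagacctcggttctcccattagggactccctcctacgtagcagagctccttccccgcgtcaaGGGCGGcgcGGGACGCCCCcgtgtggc
Map3k7: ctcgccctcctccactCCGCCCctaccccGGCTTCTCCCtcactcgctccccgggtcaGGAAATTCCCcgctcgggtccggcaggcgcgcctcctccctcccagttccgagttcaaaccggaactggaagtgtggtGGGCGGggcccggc
Myd88: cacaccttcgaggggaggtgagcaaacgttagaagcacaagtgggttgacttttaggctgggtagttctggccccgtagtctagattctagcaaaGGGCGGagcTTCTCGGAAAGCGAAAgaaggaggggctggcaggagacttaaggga

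All 4 hold a GC box. A wider window ran from 250 bases before to 50 after the first start of each gene. In it 8 of 8 genes of the chain with an entry held a GC box, against 35.7% of 32851 mouse promoters of that length. Map3k7 holds 2 kappa B matches, which begin 121 and 92 bases before the start, and Irak1 holds 1, 18 bases before it. With Traf6, 3 of 8 genes of the chain held a kappa B match, against 20.7% of all promoters. Myd88 alone holds a STAT match and an interferon response match (1 of 8 each, against 8.30% and 3.44% of all promoters), and the 2 overlap. An AP-1 match (TGANTCA) was found in 0 of 8, against 7.81% of all promoters. At their first starts the windows of the 8 genes had 54.0% to 78.0% G or C and 13 to 44 CG pairs, against medians of 52.7% and 7 over all promoters. A second start of Tab2 held no GC box and had 38.7% G or C and 2 CG pairs. These are matches of letters only.

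Among themselves the 9 genes varied with little in common. Over the 14 libraries, with the mean of each library group subtracted, Pearson's r between pairs ran from -0.61 to 0.61 with a median of -0.01 over the 36 pairs, as a description of libraries that share depth and scaling. Of the pairs 11 were positive in both library groups, 13 negative in both and 12 opposite in sign. The genes most like a member by the same measure, among 5227 genes whose log2 CPM averaged at least 4, were Limd1 (r = 0.92) and Gtf2a1 (0.90) for Tollip, Ssr3 (0.90) and Lin7c (0.89) for Traf6 and Acox3 (0.89) and Lrpprc (0.88) for Ikbkb. For Irak2 they were Parl (0.84) and Klhl36 (0.80), for Tab2 Eml4 and Rpf1 (both 0.82), for Irak4 Ttc9c (0.82) and Kpna2 (0.80) and for Myd88 Ezr and Arl6ip6 (both 0.81). None of these 14 genes is of the chain or its pathway lists. Each was picked as the highest of many correlations over few libraries, and no p-value was computed. Irak4 with Kpna2 gave 0.95 in deep and 0.42 in shallow libraries, and Tab2 with Eml4 0.51 and 0.91. The lowest of the rest in either group was Myd88 with Arl6ip6, at 0.70 in deep libraries. Irak1 and Map3k7 averaged below 4 log2 CPM and were not matched.

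Upstream of MyD88, the genes listed as TIR receptors were unevenly expressed. The list also holds Il1r2, the decoy receptor of IL-1, which does not signal through MyD88. It is counted among those tested, and its difference of 0.10 is the median given below. Of 20 listed, 16 were in the table and 13 tested, and Tlr5, Tlr8, Tlr11 and Tlr13 were among those not analysed here. Il1r1, the signalling receptor of IL-1, had 0 to 25 reads and was at 0 in 8 of 14 libraries, with 13 reads in all in Il1rn-/- and 35 in wild type, so a genotype difference was not detectable at this depth. Its partner Il1rap averaged 3.44 ± 0.43 log2 CPM in Il1rn-/- and 3.31 ± 0.50 in wild type (SD, n = 7 each) and differed by 0.13 ± 0.27. Il1rl1, which encodes ST2, averaged 3.74 ± 0.66 in Il1rn-/- and 4.20 ± 0.46 in wild type and differed by -0.46 ± 0.28. Il18r1 averaged 4.43 ± 0.60 in Il1rn-/- and 4.09 ± 1.30 in wild type and differed by 0.34 ± 0.32, or by -0.14 with the library group as covariate. Tlr6 and Tlr4 differed by 0.50 ± 0.32 and 0.47 ± 0.39, and 0 of the 13 passed in either direction, 9 positive and 4 negative with a median of 0.10. With the library group as covariate 6 were positive and 7 negative, with a median of -0.03.

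Beside MyD88, other TIR adaptors (5 tested) had 1 positive and 4 negative differences and a median of -0.21, with Ticam1 at -0.35 ± 0.30, Sarm1 at 0.40 ± 0.48 and Ticam2 at -0.21 ± 0.59. The ubiquitin machinery around TRAF6 (8 of 9 listed tested, Peli2 not analysed here) had 3 positive and 5 negative, with a median of -0.07, while the library group as covariate gave 6 positive and 2 negative. Ube2v1 and Ube2n, the pair of conjugating enzymes that build lysine-63 chains with TRAF6, differed by -0.88 ± 0.46 and -0.67 ± 0.36, and by 0.11 and 0.01 with the library group as covariate. Rnf31, of the linear ubiquitin ligase, differed by 0.23 ± 0.14. Partners of TAK1 and IKKβ (5 tested) had 5 positive differences and 0 negative, with a median of 0.19. Ikbkg, the regulatory IKK subunit, differed by 0.21 ± 0.16, Chuk, the other catalytic subunit, by 0.23 ± 0.24 and Tab1 by 0.19 ± 0.20. With the library group as covariate 3 were positive and 2 negative. Of these 18 genes 0 passed by limma.

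Among brakes on the chain (12 tested) 8 differences were positive and 4 negative, with a median of 0.17, and -0.01 with the library group as covariate. Otulin, which cuts linear ubiquitin chains, differed by 0.50 ± 0.29, Otud7b by -0.29 ± 0.21 and Tax1bp1 by 0.22 ± 0.16. Irak3, the kinase-dead IRAK that restrains the others, had only 1 to 42 reads and differed by -0.10 ± 0.48. Other TRAFs (6 tested) had 4 positive and 2 negative, with a median of 0.20. Traf2, the adaptor of TNF receptors, averaged 6.11 ± 0.26 log2 CPM in Il1rn-/- and 5.58 ± 0.69 in wild type (SD, n = 7 each). Its difference was 0.53 ± 0.21 (unadjusted p 0.0191, adjusted p 0.787 by limma) and 0.33 with the library group as covariate, and it passed in neither fit. Traf1 and Traf3 differed by 0.25 ± 0.16 and 0.24 ± 0.19.

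In the MAP kinase arm below TAK1 (11 tested) 7 differences were positive and 4 negative, with a median of 0.10, and -0.04 with the library group as covariate. Map2k4, a kinase that activates JNK, averaged 3.91 ± 0.58 log2 CPM in Il1rn-/- and 4.50 ± 0.56 in wild type (SD, n = 7 each) and differed by -0.59 ± 0.25 (unadjusted p 0.0298, adjusted p 0.787 by limma), or by -0.31 with the library group as covariate. Map3k8 and Jun differed by 0.76 ± 0.44 and 0.75 ± 0.58, and by 0.27 and -0.04 with that covariate. NF-κB subunits and IκB genes (10 tested) had 8 positive and 2 negative, with a median of 0.10, and 3 positive and 7 negative with the covariate. Nfkbie differed by 0.24 ± 0.16, Nfkbib by 0.24 ± 0.19 and Rela by -0.11 ± 0.14. In each of these lists 0 genes passed by limma, as 0 of 12329 did.

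The pathway genes that did pass did so between the sets (set b minus set a). Of the ubiquitin machinery 3 of 8 were higher and 1 lower in set b, with Ube2v1 at 2.74 ± 0.47 (adjusted p 0.00141 by limma) and Ube2n at 1.75 ± 0.37, where 8.48% of all genes were called higher and 11.0% lower. Of the 13 genes tested from the TIR receptor list 3 were lower in set b, with Il18r1 at -1.41 ± 0.32, and 1 was higher, Tlr12 at 1.42 ± 0.38 (adjusted p 0.0145 by limma). The other genes called were all lower in set b, 2 of 12 brakes, with Tax1bp1 at -0.52 ± 0.16, and 1 gene each among TAK1 and IKK partners (Chuk at -0.87 ± 0.24), other TRAFs (Traf3 at -0.65 ± 0.19), the MAP kinase arm (Map3k8 at -1.31 ± 0.44) and NF-κB and IκB genes (Nfkb2). Chuk and Ikbkb, the 2 catalytic IKK genes, were both called lower in set b, while Ikbkg differed by -0.24 ± 0.16 (adjusted p 0.305 by limma) and was not called. With the library group added 0 of these 14 pathway genes were called (lowest adjusted p 0.526 by limma), with Ube2v1 at 0.36, Traf3 at -0.18, Map3k8 at -0.05, and Ube2n at -0.08 and Tax1bp1 at 0.06 turned in sign. Jun at 1.63 and Nfkbia at 2.00 were called in that fit instead, and were negative without the library group, at -1.45 and -0.45. Jun and Nfkbia here, like Tlr12, were named after their values were seen.

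**Figure D5:**
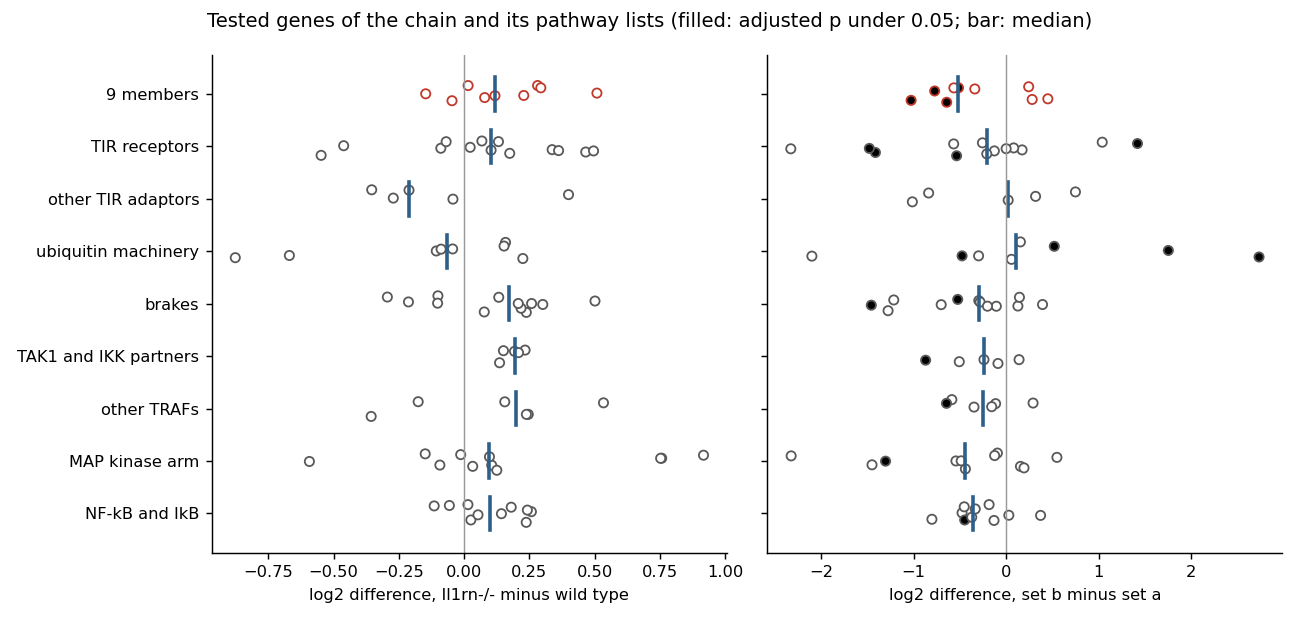
Log2 differences of the tested genes of the chain and of 8 pathway lists, Il1rn-/- minus wild type on the left and set b minus set a on the right, with filled points for an adjusted p under 0.05 and a bar at each median. On the left 0 points are filled and the medians lie between -0.21 and 0.20. On the right 4 genes of the chain are filled, all below 0.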

How the data were processed

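RNA was measured in 14 libraries of 50000 sorted cells. RNA was extracted with a Qiagen RNeasy Micro kit, libraries were made with Smart-Seq2 and Cuffquant 2.2.1 did the quantification, per the labels' protocols. BWA, TopHat2 2.0.10, Cufflinks 2.2.1 and Cuffnorm are named, per the submitters' processing notes. The sources used here do not give genome build, annotation, strand handling or the tool behind the final values. The authors deposited log2 CPM for 14449 genes, 165 without a symbol. Their lowest value, -3.58, stands for 0 reads. Whole reads were recovered from the steps above it, and 100% of values came out whole (tolerance 0.001). The implied library sizes are 0.690 to 1.61 times the reads in the table, so the authors had rescaled them.

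The 12329 genes that exceeded 1 CPM in 3 or more libraries entered limma 3.58.1 in R 4.3.3, two-sided, with an intensity trend, genotype and set letter, and Benjamini-Hochberg adjustment at 0.05. A model of 4 groups gave the contrasts within and between sets. All 9 genes of the chain are described. Each pathway list contributes the 3 genes of lowest unadjusted p for genotype, with Il1r1, Il1rap, Il1rl1, Il18r1 and Irak3. Genes named between the sets, other than those named already, were chosen after their values were seen. Members and lists were chosen with earlier results of these data known. Transcript lengths came from GENCODE M21. Sums and figures were made in Python 3.11.15 (matplotlib 3.10.9, numpy 2.4.6). Fits were tested on simulated data. Replicates were compared and none was a duplicate within sampling noise (lowest chi-square per degree of freedom 1.88). Alternatives covered the filter, the pseudocount (log2(CPM + 1)), scaling, the variance model, library weights, limma voom on recovered reads, a block by replicate number, library group, Y-linked transcripts (at least 20 reads) and each library left out. The fits without Il1rn-/- 3-b and 4-b, and with the library group within set b, were chosen after seeing the data. Reads carry no molecular identifiers, so read numbers cover counting error only.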

Additional observations from a re-analysis of the deposited data

Results flagged for a closer look

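Each gene was examined in each genotype for a library far from the rest, among the 4 libraries of set b and among the 7 of both sets. Set a was not examined by itself. Of these 36 groups, which overlap, 2 stood out by Dixon's test, and chance flags about 1 group in 20. Irak1 in wild-type set b was at 3.25, 3.30 and 3.23 log2 CPM in libraries 1-b, 2-b and 4-b and at 2.24 in 3-b. The gap took 0.938 of the range, above the critical value of 0.829 for 4 libraries. The value of 3-b rests on 4 reads, with a 95% exact Poisson interval of 1.09 to 10.2 reads, and this library had the fewest reads of all, 952021. Without it the Irak1 difference (Il1rn-/- minus wild type) in set b was 0.30, and 0.12 over all libraries. Irak4 in Il1rn-/- was lowest in 4-b, at 3.90 log2 CPM with 44 reads, where the other Il1rn-/- libraries lay at 4.61 or higher. The gap took 0.580 of the range, above the critical value of 0.568 for 7 libraries. Without 4-b the Irak4 difference was 0.13 over all libraries.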

How the results depend on the processing

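Over 901 recalculations of the genotype differences of the 9 genes (all libraries, set a, set b and between sets), 1 was called, Ikbkb in set b without Il1rn-/- 2-b. Genes called over the whole table moved by over 1.5 times as follows. In set b 3 were called with scaling to reads outside Rn45s, 6 with no intensity trend and 1 with Il1rn-/- 3-b and 4-b left out, and between the sets 2 with no intensity trend. For genotype 2 were called within the deep and 13 within the shallow libraries, and 1 in set a fitted alone. Between set b and set a the count was 2408 of 12329 genes. It was 1539 of the 5227 genes averaging at least 4 log2 CPM, a smaller count but a larger share. Over the 12329 genes it was 4091 with library weights, 12 with the library group added and 4462 without Il1rn-/- 3-b and 4-b. With 1 library left out, 0 genes were called for genotype over all libraries, 0 to 1 in set a (1 without wild-type 3-a), 0 to 230 in set b (230 without Il1rn-/- 2-b, 7 without Il1rn-/- 1-b, 3 without wild-type 1-b), 0 between the sets and 1355 to 3376 between set b and set a (1355 without wild-type 2-a, 1570 without wild-type 1-a, 3376 without Il1rn-/- 4-b).

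Signs turned for genotype as follows. Irak4 came to -0.0058 with libraries centred on their medians, -0.10 with reads outside Rn45s (where Traf6 was -0.033) and -0.066 with voom. With library weights Irak2 was 0.0023 and Tab2 -0.063. With the library group Irak2 was 0.041, Irak4 -0.022 and Tab2 -0.11, and Tab2 was -0.12 with the letter added. With Y-linked transcripts added to the library group Irak1 was -0.0030, Irak2 0.037, Irak4 -0.043 and Tab2 -0.11. Within deep libraries Irak1 was -0.23, Irak2 0.35, Irak4 -0.40, Tollip -0.025, Map3k7 -0.17, Tab2 -0.11 and Ikbkb -0.10, and within shallow ones Tab2 was -0.10, as in set b with the library group added or with Il1rn-/- 3-b and 4-b left out. In set a Tollip was -0.034 and Map3k7 -0.0043 when centred, and Irak1 0.012 and Tollip -0.0073 with weights. The Myd88 difference between sets was 0.057 when centred, 0.016 with voom and 0.086 with weights, and its main value was -0.02. The Tab2 difference of set b and set a was 0.069 with the library group added. The cause of these changes was not tested. Leaving out 1 library turned signs for genotype in Irak2 (-0.13 to 0.028), Irak4 (-0.092 to 0.13), Traf6 (-0.047 to 0.19) and Tab2 (-0.049 to 0.24), in set a for Irak1 (-0.31 to 0.15), Traf6 (-0.49 to 0.14), Tollip (-0.13 to 0.15), Map3k7 (-0.15 to 0.36) and Ikbkb (-0.13 to 0.025), and between sets for Myd88 (-0.15 to 0.11).

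Whether replicate numbers pair the libraries could not be settled. In 0 of 7 same-numbered pairs was the correlation of deviations from group means over 0.1, while different-numbered pairs reached 0.20. In set b only the Il1rn-/- group holds both deep and shallow libraries, which could hide a pairing there. With the number as a block 0 genes were called for genotype, whether over all libraries or in either set, and the Ikbkb difference of set b was 0.91 ± 0.23. Low reads limit Irak1 and Map3k7 in shallow libraries, with 4 to 24 and 8 to 22 reads.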
